A study of Mus musculus with 13 samples.

Results

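The p53 target genes and the Gadd45 genes of mouse embryonic stem (ES) cells were followed under 2 inhibitors of the p38 kinases. The set was a list of 10 gene symbols, namely Trp53, Mdm2, Cdkn1a, Ccng1, Perp, Sfn, Gadd45a, Gadd45b, Gadd45g and Fas. Its members were the probe sets, the groups of short DNA probes that report on a transcript, whose platform annotation gave one of these symbols alone. A probe set was found for 9 of the 10 genes, out of 8388 genes named in this way in the series. Trp53, which encodes p53 itself, had none and its level was not analysed here. The members had 11 probe sets on the array version U74A and 12 on U74Av2.

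RNA came from adherent cells only, lysed 3 days after LIF (leukaemia inhibitory factor, the cytokine that holds mouse ES cells in self-renewal) was removed, and cells that had come off the dish were not measured. All groups had earlier been grown in 500 pM LIF and were seeded at 10000 cells per ml, either without a compound (control) or with 10 µM PD169316 or 10 µM SB203580. Both compounds are pyridinyl imidazoles, and a phenyl ring of theirs carries a nitro group (PD169316) or a methylsulfinyl group (SB203580). Both compounds were given to S1, an ES line kept without feeder cells. For S1, U74A held 2 control, 2 PD169316 and 1 SB203580 arrays, and U74Av2 held 2 arrays of each. D4, a feeder-dependent line that had been cultured 2 times without its feeder cells, was measured on U74A alone, with 1 control and 1 PD169316 array.

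The transcription factor p53 is held low by Mdm2, a ubiquitin ligase that is itself a p53 target, and after DNA damage it switches on genes that halt the cell cycle or start cell death. Cdkn1a (p21) inhibits cyclin-dependent kinases, Sfn (14-3-3 sigma) holds the mitotic kinase complex in the cytoplasm, Ccng1 encodes cyclin G, Perp a membrane protein of desmosomes and of cell death, and Fas a death receptor. The Gadd45 proteins are small stress-induced proteins that bind PCNA, the mitotic kinase Cdk1 and the kinase Map3k4, through which they can activate p38 and JNK. Gadd45a is a direct p53 target, whereas Gadd45b and Gadd45g are known mainly as targets of NF-kappa B, TGF-beta and cytokine signals.

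The results turn on Perp, Gadd45a, Gadd45b and Sfn. The sequence before the start site is shown for Gadd45a, Gadd45b and Sfn, and for Gadd45g and Cdkn1a, which were tested and not called in S1. Each is the 250 bases upstream of a RefSeq start site on GRCm38.p6, written 5′ to 3′ on the strand of the gene. Capitals mark matches, on either strand, to the p53 half-site consensus, to the octamer ATGCAAAT bound by Pou5f1 and its relatives, and to CCAAT. No match overlapped another in these windows.
Gadd45a (chr6:67037408-67037657, minus strand): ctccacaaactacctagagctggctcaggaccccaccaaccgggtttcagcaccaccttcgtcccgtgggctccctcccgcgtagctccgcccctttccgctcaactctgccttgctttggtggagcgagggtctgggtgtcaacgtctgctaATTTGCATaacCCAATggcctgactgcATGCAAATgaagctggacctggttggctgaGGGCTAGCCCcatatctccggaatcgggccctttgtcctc
Gadd45b (chr10:80929841-80930090, plus strand): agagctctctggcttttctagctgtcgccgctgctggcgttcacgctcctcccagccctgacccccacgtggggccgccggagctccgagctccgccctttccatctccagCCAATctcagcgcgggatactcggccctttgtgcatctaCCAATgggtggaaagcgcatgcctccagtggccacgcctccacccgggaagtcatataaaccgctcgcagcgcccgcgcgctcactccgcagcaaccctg
Gadd45g (chr13:51846425-51846674, plus strand): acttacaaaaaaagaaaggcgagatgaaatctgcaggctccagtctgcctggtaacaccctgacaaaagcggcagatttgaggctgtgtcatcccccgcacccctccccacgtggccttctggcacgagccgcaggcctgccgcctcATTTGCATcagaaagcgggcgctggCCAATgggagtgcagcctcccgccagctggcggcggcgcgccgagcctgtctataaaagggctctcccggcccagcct
Sfn (chr4:133602169-133602418, minus strand): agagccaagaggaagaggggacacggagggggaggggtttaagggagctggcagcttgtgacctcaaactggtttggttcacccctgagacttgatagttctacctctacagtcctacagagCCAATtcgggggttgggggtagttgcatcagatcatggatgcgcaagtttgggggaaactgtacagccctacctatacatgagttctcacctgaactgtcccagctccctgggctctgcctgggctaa
Cdkn1a, upstream start (chr17:29090729-29090978, plus strand): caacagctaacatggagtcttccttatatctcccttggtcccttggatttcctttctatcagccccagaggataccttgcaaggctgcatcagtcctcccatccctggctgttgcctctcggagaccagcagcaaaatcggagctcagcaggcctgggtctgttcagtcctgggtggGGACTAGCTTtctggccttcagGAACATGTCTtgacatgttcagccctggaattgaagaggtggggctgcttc

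The motifs were chosen with the sequences in view, so the counts describe these windows and support nothing further. A p53 half-site was present in 5 of the 10 windows that were found for 9 of the listed genes (Trp53 included), and in 7.13% of all 32851 windows of the same length. The windows with it were those of Trp53, Mdm2, Ccng1, Gadd45a and the upstream start of Cdkn1a, where its first bases lay 73 and 51 bases before the start site. The window of the other Cdkn1a start, not printed, matched none of the motifs. No window was found for Perp, so its upstream sequence was not searched. Gadd45a held an octamer at 97 and another at 70 bases before the start, with CCAAT between them at 86, and Gadd45g held an octamer at 103 and CCAAT at 78. An octamer was present in 1.6% of all windows and CCAAT in 33.8%. Gadd45b and Sfn had CCAAT alone, at 139 and 100 bases before the start in Gadd45b and at 128 in Sfn.

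Values are MAS 5.0 signals, a measure of brightness that the authors scaled separately on each array, and they are compared only within a probe set and an array version. Signals under a floor of 32 were raised to 32 before log2 was taken. A probe set was tested where at least 2 arrays of a fit reached a signal of 100, which 8 member probe sets (7 genes) did on U74A and 10 (8 genes) on U74Av2. Two-sided limma tests were run over all probe sets that passed this filter, and a gene is said to have risen or fallen only where the Benjamini-Hochberg adjusted p was under 0.05. "Combined" refers to a test over both array versions, with the mean of both log2 fold changes as its size. The labels do not say whether replicate arrays came from separate cultures, so p-values measure the spread between these arrays, which may be technical.

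The array files placed the hybridizations on 5 days. Replicate 1 arrays of S1 on both versions and the U74A SB203580 array fell on day 3, U74A replicate 2 on day 2, and the D4 arrays on day 1. On U74Av2 the replicate 2 control and PD169316 arrays fell on day 5 and the SB203580 array on day 4. Log2 ratios of PD169316 over control of the day 3 pairs correlated across the versions at r = 0.43 over 5369 probe sets (other couples of pairs, 0.05 to 0.28), and whether these pairs carried the same RNA was not tested. The Actb signal ratio between its 3′ and 5′ probe sets, which is known to rise as RNA degrades, was 3.31 and 3.21 on the day 3 controls and 1.46 to 2.25 on the other arrays. ES genes were bright on all 13 arrays (Pou5f1, 3450 to 6606 on U74A and 4130 to 9165 on U74Av2 with its main probe set). The highest ratio for Gapdh was on another array, U74Av2 SB203580 replicate 2 (1.71, beside 1.42 and 1.58 on the day 3 controls and 0.874 to 1.21 on the rest). Of 11 probe sets of fibroblast genes on U74A, 3 to 6 were at or under 32 on each array, as were 6 to 8 of 15 on U74Av2, and some were well above it. Their summed signal was 370 to 1129 on the S1 arrays of U74A, 1186 and 1190 on the D4 arrays and 900 to 1613 on U74Av2. For Col1a2, 101130_at was under 32 on every array, while 161156_r_at on U74Av2 read 299 to 886. As RNA was taken from all adherent cells together, fewer cells that express a gene and less RNA per cell cannot be told apart.

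The first comparison, PD169316 against control in S1, concerned what the compound changes in ES cells deprived of LIF. Perp, Sfn and Gadd45a rose in the combined test, by 2.97-fold, 2.41-fold and 2.09-fold, and Gadd45b passed on U74Av2 with 161666_f_at alone, a probe set that met the signal filter only through treated arrays. Mdm2, Cdkn1a and Gadd45g lay within 0.16 of no change on the log2 scale and were not called, and Fas was too dim to test. Thus 3 of the 7 member genes tested on both versions rose and 0 fell, where 1.88% of all 5369 probe sets were called (1.38% higher and 0.503% lower). When the correlation of both versions' z scores was allowed for, 0 of the 7 members and 0.224% of all probe sets were called. The calls of Perp, Sfn and Gadd45a were also lost when PD169316 replicate 1 of either version or control replicate 1 of U74Av2 was left out. In each case fewer of all probe sets were called too. With the replicate number as a block 4 members were called, Gadd45b added, and 199 of all probe sets, beside 101 without the block. The Gadd45b probe set of the combined test, 102779_at, also met the signal filter only with treated arrays counted.

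**Figure D1:**
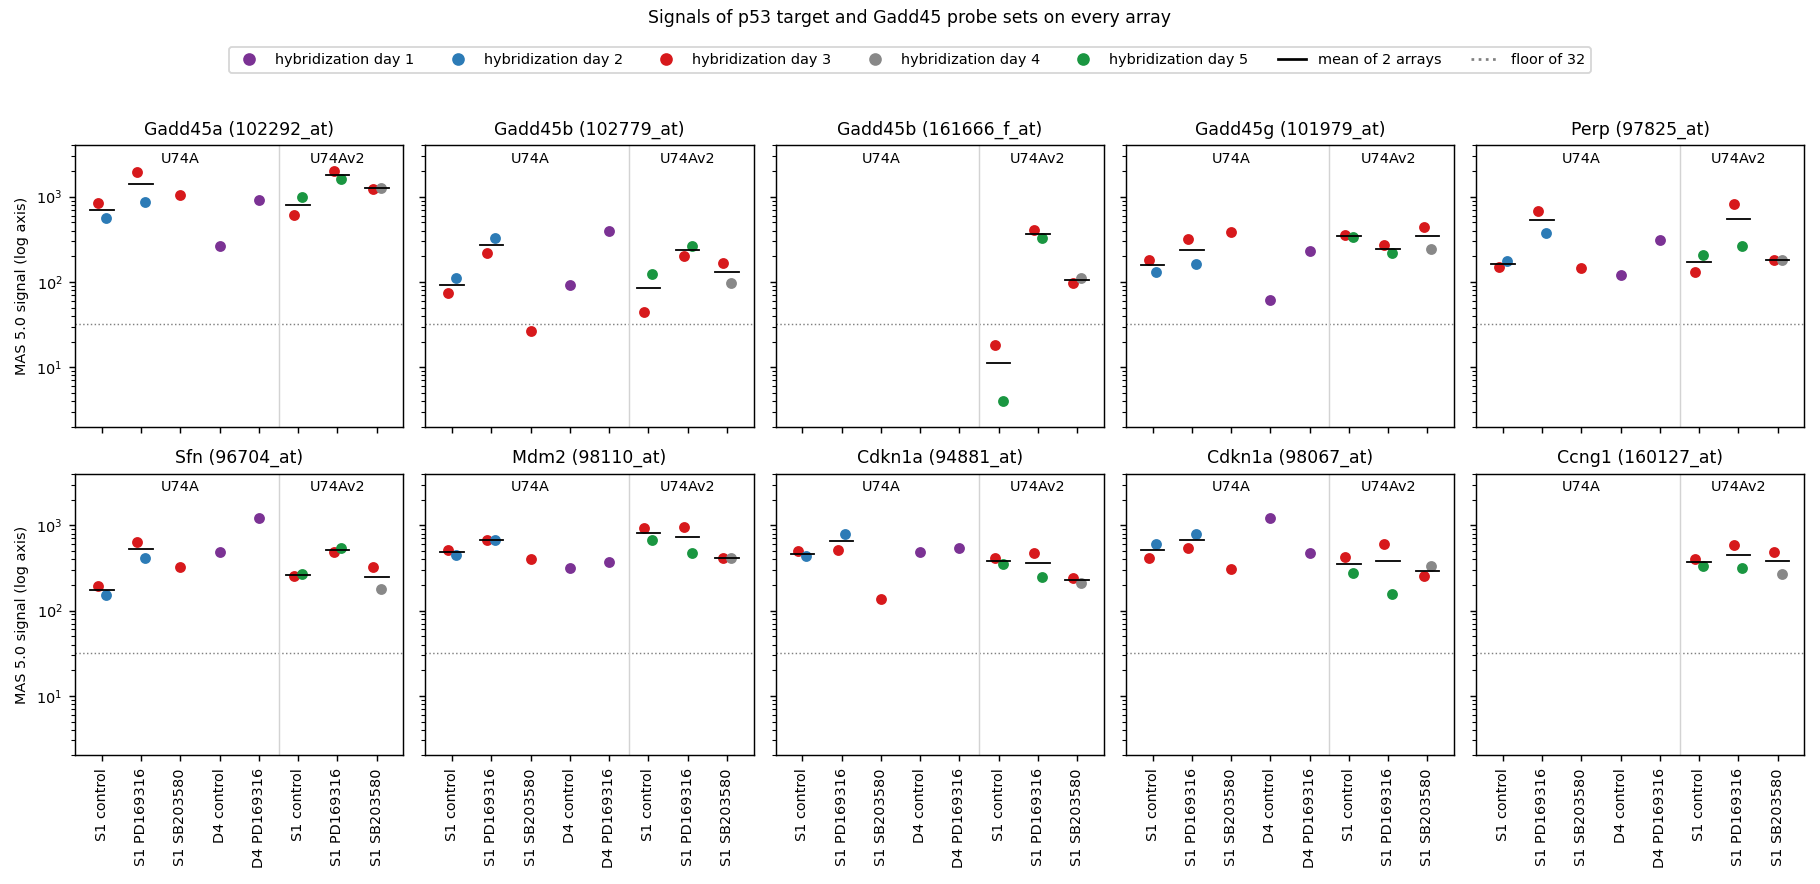
MAS 5.0 signal (log axis) of each tested member probe set on every array, coloured by hybridization day, with a bar at the mean of 2 arrays and a dotted line at the floor of 32; Gadd45b 161666_f_at and Ccng1 160127_at have points on U74Av2 alone. With PD169316 the S1 signals of Gadd45a, Gadd45b, Perp and Sfn lie above all S1 controls of the same version, and those of Mdm2 and Cdkn1a mix with the controls on U74Av2.

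Gadd45a, the p53-dependent Gadd45 gene, was read by 102292_at. On U74A its signal was 841 and 560 in the S1 controls (replicates 1 and 2) and 1949 and 872 with PD169316. The U74Av2 signals were 611 and 990 in control and 2003 and 1591 with PD169316. Both PD169316 arrays lay above both controls on each version, by a wide margin on U74Av2 and by a narrow one on U74A, where replicate 2 with PD169316 was close to control replicate 1. Such a separation, with the PD169316 arrays above the controls, was seen in 18.7% of all U74A and 19.8% of all U74Av2 probe sets tested. The rise of Gadd45a was 1.06 ± 0.27 as a log2 difference (SE; 2 arrays against 2 on each version; limma adjusted p = 0.0291, and adjusted p = 0.216 with the correlation of z scores allowed for). The estimates within the versions were 0.93 ± 0.45 on U74A and 1.199 ± 0.290 on U74Av2. With the replicate number as a block the adjusted p was 0.00378. The call was lost without any of 4 single arrays (adjusted p = 0.259 without U74A PD169316 replicate 1, 0.0530 without U74A control replicate 2, 0.209 without U74Av2 control replicate 1 and 0.202 without U74Av2 PD169316 replicate 1).

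Gadd45b was read by 102779_at on both versions and by 161666_f_at on U74Av2, where the suffix f marks probes that can match related sequences. With 102779_at, U74A gave 74.9 and 110 in control and 221 and 328 with PD169316. The same probe set on U74Av2 gave 44.1 and 124 in control and 203 and 265 with PD169316. Groups did not overlap on either version, and the log2 ratios of same-numbered arrays were 1.57 on day 2, 1.56 and 2.20 on day 3 and 1.10 on day 5. Of the S1 controls only replicate 2 of each version (110 and 124) reached the minimum signal of the filter. The probe set 102779_at thus met the filter only with treated arrays counted. It was tested because treated arrays were high, so its test results are descriptions. The combined difference of 1.61 ± 0.43 was as large as that of Perp but did not pass (adjusted p = 0.0671, and adjusted p = 0.361 with the correlation of z scores allowed for). With the replicate block it did (adjusted p = 0.0157), as it did without U74A control replicate 2 (0.0434), the U74A SB203580 array (0.0405) or U74Av2 control replicate 2 (0.0369).

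The probe set 161666_f_at gave a steeper difference for Gadd45b. Its U74Av2 signal was 18.3 and 4.0 in control, under the floor on both arrays, and 405 and 324 with PD169316. Against the floor Gadd45b was thus at least 11.3-fold higher with PD169316 (log2 difference of at least 3.50 ± 0.51; limma adjusted p = 0.0351). The probe set reached a signal of 100 only on arrays with a compound, so it was tested because it was high there, and its call is a description. With no signal filter its adjusted p was 0.235. On U74Av2 alone 1 of 8 member genes was called, this one, where 0.128% of 7050 probe sets were called, and on U74A 0 of 7 were called, where 0.0176% of 5681 were. At an unadjusted p under 0.05, U74A had 3 of 7 member genes (Perp, Sfn and Gadd45b) and 4.65% of all probe sets. Of these genes, Gadd45b met the signal filter there only with PD169316 arrays counted. The adjusted p on U74Av2 was 0.00838 with the replicate block, but the call was lost whichever single array was left out, with adjusted p from 0.0631 (without control replicate 2) to 0.473 (without PD169316 replicate 1). The values without the others were 0.123 (control replicate 1), 0.0708 (PD169316 replicate 2), 0.0869 (SB203580 replicate 1) and 0.0710 (SB203580 replicate 2). In the same fit 102779_at had a difference of 1.65 ± 0.57 and an adjusted p of 0.434, so the call rests on 1 probe set.

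Gadd45g (101979_at) took no common direction in S1. On U74A it read 182 and 132 in control and 315 and 160 with PD169316, and on U74Av2 352 and 333 in control against 271 and 221. The groups overlapped on U74A, while on U74Av2 both PD169316 arrays lay below both controls, as in 18% of all probe sets tested there. The combined difference was 0.02 ± 0.31 with a 95% confidence interval of -0.59 to 0.64 (adjusted p = 0.959). Its sign turned under quantile normalization (-0.08). A change of either sign within this interval remains possible.

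Perp (97825_at) showed the largest called difference of the combined test among the members. Its U74A signal was 150 and 176 in control and 685 and 378 with PD169316. The U74Av2 signal was 132 and 207 in control and 830 and 263 with PD169316. Both versions kept the groups apart, and on both the replicate 1 array with PD169316 was the highest. The pair ratios on the log2 scale were 2.19 and 2.65 on day 3, 1.10 on day 2 and 0.35 on day 5, so the ratio was smallest on day 5. Perp rose by 1.57 ± 0.34 (adjusted p = 0.0194, and adjusted p = 0.171 with the correlation of z scores allowed for). With the replicate block the adjusted p was 0.00533. The call was lost without U74A PD169316 replicate 1 (adjusted p = 0.136), U74Av2 control replicate 1 (0.109) or U74Av2 PD169316 replicate 1 (0.249). Without the day 3 controls of both versions, the arrays with the highest Actb ratios, the difference was 1.35 (adjusted p = 0.208), and the part of RNA quality in the size on day 3 was not tested.

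Sfn (96704_at) was steadier between pairs than Perp. On U74A the signal was 197 and 154 in control and 641 and 417 with PD169316, and on U74Av2 it was 257 and 268 against 489 and 536. The lowest PD169316 array lay well above the highest control on each version. The pair ratios were 1.43 on day 2, 1.71 and 0.93 on day 3 and 1.002 on day 5. Sfn rose by 1.27 ± 0.28 (adjusted p = 0.0232, and adjusted p = 0.187 with the correlation of z scores allowed for). The adjusted p with the replicate block was 0.00726. The call was lost without U74A PD169316 replicate 1 (adjusted p = 0.137), either U74Av2 control (0.0964 without replicate 1 and 0.0592 without replicate 2) or U74Av2 PD169316 replicate 1 (0.0948), while without the day 3 controls of both versions the difference was 1.34 (adjusted p = 0.106).

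**Figure D2:**
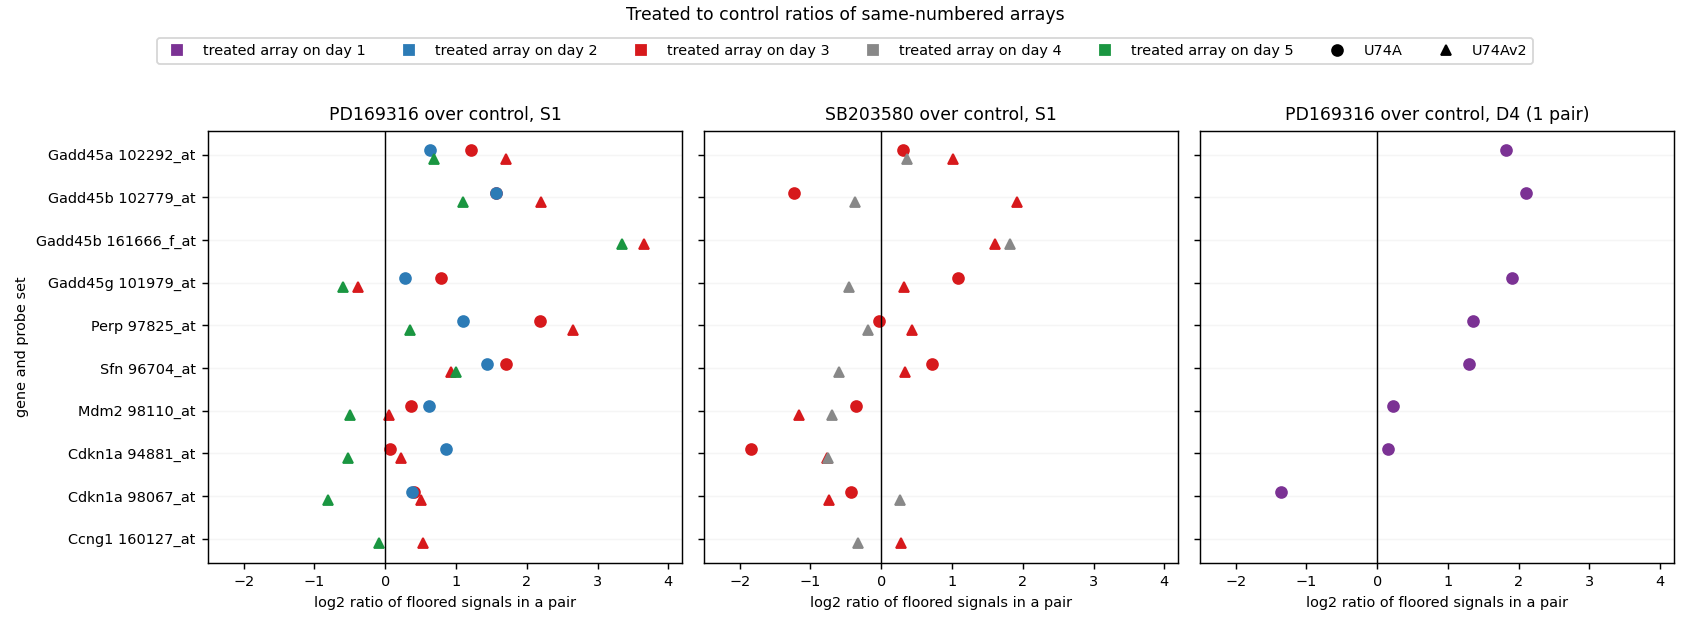
Log2 ratio of treated over control signal, after the floor, in each pair of same-numbered arrays, for PD169316 in S1, SB203580 in S1 and PD169316 in D4, coloured by the day of the treated array (U74A circles, U74Av2 triangles; the U74Av2 SB203580 array of day 4 is set against the control of day 5). With PD169316 in S1 all 4 pairs of Gadd45a, Gadd45b 102779_at, Perp and Sfn lie above 0, with Perp at 0.35 on day 5 the nearest to it.

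Gadd45a, Gadd45b (102779_at), Perp and Sfn were each higher in 4 of 4 same-numbered pairs, as were 12.6% of all 5369 probe sets. These pairs come from the same arrays as the tests and are no separate check. When 1 ratio was taken for each of the 3 hybridization days, the differences were 1.29 (Perp), 1.25 (Sfn), 0.93 (Gadd45a) and 1.52 (Gadd45b). Of the members 0 passed, as 0 of all 5369 probe sets did (limma adjusted p = 0.676 for each of these genes).

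Mdm2, the p53 inhibitor and p53 target, did not differ beyond its spread. Its probe set 98110_at read 517 and 444 in control and 664 and 678 with PD169316 on U74A, and 931 and 679 against 966 and 479 on U74Av2. On U74A both PD169316 arrays lay above the controls, and on U74Av2 the highest and the lowest array were both PD169316 arrays. The combined difference was 0.13 ± 0.25 (95% confidence interval -0.36 to 0.62; adjusted p = 0.916).

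Cdkn1a was read by 2 probe sets on each version, and neither differed. For 98067_at U74A gave 408 and 608 in control and 540 and 787 with PD169316, and U74Av2 gave 427 and 274 against 603 and 156. For 94881_at U74A gave 494 and 438 in control and 518 and 796 with PD169316, and U74Av2 gave 411 and 356 against 479 and 247. On U74Av2 the PD169316 arrays of both probe sets enclosed the controls, with replicate 1 above and replicate 2 below them. The combined differences were 0.12 ± 0.33 (98067_at, adjusted p = 0.919) and 0.16 ± 0.27 (94881_at, adjusted p = 0.909), with 95% confidence intervals of -0.54 to 0.77 and -0.38 to 0.69.

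Ccng1 could be read on U74Av2 alone, since its U74A probe set was listed at 0 on all 7 arrays. Its signal (160127_at) was 401 and 334 in control, 581 and 314 with PD169316 and 487 and 267 with SB203580. In both treated groups 1 array lay above and 1 below the controls. PD169316 differed from control by 0.22 ± 0.39 (95% confidence interval -0.64 to 1.09; adjusted p = 0.933). Fas was dim throughout: 102921_s_at stayed between 2.2 and 23.5 on all arrays, under the floor. A further probe set with the symbol Fas, one of the manufacturer's control probe sets, read 13.7 to 96.3. Neither reached the filter, so Fas was not tested.

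**Figure D3:**
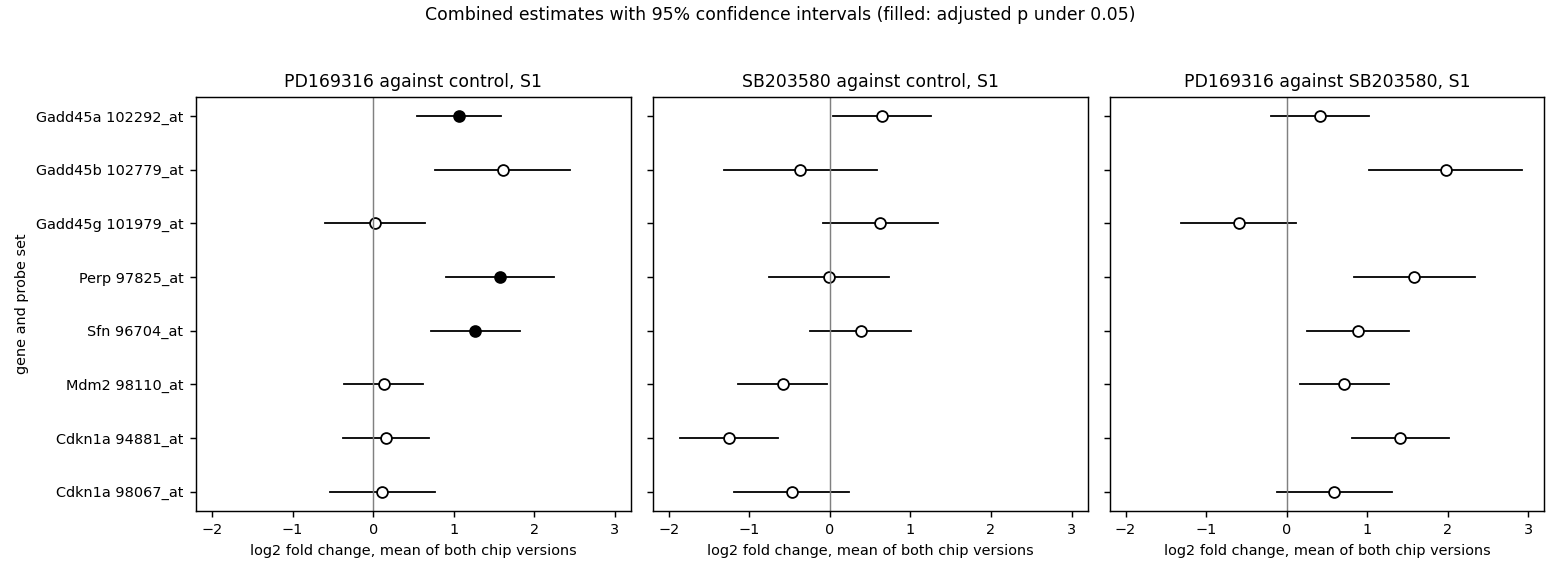
Combined log2 fold change over both array versions in S1, with 95% confidence intervals, for the 8 member probe sets tested on both; filled points passed an adjusted p of 0.05. Perp (1.57), Sfn (1.27) and Gadd45a (1.06) are filled for PD169316 against control, and no point is filled for SB203580 against control or for PD169316 against SB203580.

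SB203580, the other inhibitor, was set against control in S1 in the same way. None of the 7 member genes tested on both versions was called, as 0 of all 5369 probe sets were (0%), with or without the correlation of z scores, while 2 members (Gadd45a and Mdm2) and 4.64% of all probe sets had an unadjusted p under 0.05. This comparison shares its control arrays with that of PD169316. On U74A it rests on 1 SB203580 array, which was assumed to vary like the other groups.

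With SB203580 the Gadd45a signal was 1041 on U74A and 1229 and 1277 on U74Av2, above every S1 control of the same version. The share of all probe sets with such a separation is not given here, and in the other direction it was 20% on U74Av2. The combined difference was 0.64 ± 0.31 (95% confidence interval 0.04 to 1.25; adjusted p = 0.986). Gadd45b with 102779_at read 26.4 on U74A, below both controls and under the floor, and 167 and 95.9 on U74Av2, where 1 array lay above the controls and the other between them. Its combined difference was -0.37 ± 0.48 (adjusted p = 0.995). By 161666_f_at, in contrast, Gadd45b read 97.3 and 112 on U74Av2 against controls under the floor, at least 3.27-fold higher, and did not pass either (log2 1.71 ± 0.51, unadjusted p = 0.00652, adjusted p = 0.983). Gadd45g read 386 on U74A, above both controls, and 438 and 244 on U74Av2, 1 above and 1 below them (combined 0.62 ± 0.36, adjusted p = 0.995).

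Perp and Sfn were not called with SB203580. Perp read 146 on U74A and 179 and 182 on U74Av2, each within or next to the range of the controls, and its combined difference was -0.01 ± 0.38 (95% confidence interval -0.76 to 0.74; adjusted p = 0.9997). Sfn read 324 on U74A, above the controls, and 323 and 178 on U74Av2, 1 above and 1 below them (0.38 ± 0.32, 95% confidence interval -0.24 to 1.01; adjusted p = 0.995).

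Mdm2 and Cdkn1a had their lowest S1 signals with SB203580 in several instances. Mdm2 read 405 on U74A and 416 and 418 on U74Av2, below every S1 control, as 20% of all U74Av2 probe sets did in both SB203580 arrays (combined -0.59 ± 0.28, unadjusted p = 0.0475, adjusted p = 0.995). Cdkn1a by 94881_at read 138 on U74A and 242 and 212 on U74Av2, again below every control (-1.25 ± 0.31, unadjusted p = 0.00128, adjusted p = 0.524). Its other probe set, 98067_at, read 304 on U74A and 257 and 330 on U74Av2, the last of these between the controls (-0.47 ± 0.36, adjusted p = 0.995), so the probe sets of Cdkn1a differed in size. Ccng1 differed by -0.02 ± 0.39 on U74Av2 (adjusted p = 0.9995).

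The direct comparison of the 2 compounds, both at 10 µM for 3 days, was the only pair of compounds to be compared. None of the 7 member genes passed, where 0.689% of 5369 probe sets did (0.522% higher and 0.168% lower with PD169316, or 0.112% with the correlation of z scores allowed for), and 4 (Perp, Gadd45b, Sfn and Mdm2) had an unadjusted p under 0.05, as did 10.7% of all probe sets. Of these genes, Gadd45b met the signal filter only with treated arrays counted, so its values between the compounds are descriptions. On U74Av2 both PD169316 arrays read higher than both SB203580 arrays for Perp, Sfn, Mdm2, Gadd45a, both probe sets of Gadd45b and Cdkn1a 94881_at. So did 20.6% of all probe sets tested there. Perp differed by 1.58 ± 0.38 (95% confidence interval 0.84 to 2.33; adjusted p = 0.0681), and passed with a block for hybridization day 3 (adjusted p = 0.0276). It also passed without U74A control replicate 1 (0.0368), U74A control replicate 2 (0.0387) or U74Av2 PD169316 replicate 2 (0.00794). Sfn differed by 0.88 ± 0.32 (0.26 to 1.51; adjusted p = 0.217).

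For Gadd45b the difference between the compounds was 1.97 ± 0.48 with 102779_at (95% confidence interval 1.03 to 2.92; adjusted p = 0.11997), and 1.79 ± 0.51 with 161666_f_at on U74Av2 (0.67 to 2.92; adjusted p = 0.490), where 0.0426% of all probe sets were called. Gadd45a, higher than control with either compound by its values, differed between them by 0.42 ± 0.31 (-0.19 to 1.03; adjusted p = 0.598). Mdm2 was higher with PD169316 than with SB203580 by 0.72 ± 0.28 (0.16 to 1.27; adjusted p = 0.310). Cdkn1a differed by 1.41 ± 0.31 with 94881_at (0.81 to 2.01; adjusted p = 0.0947) and by 0.59 ± 0.36 with 98067_at (-0.12 to 1.30; adjusted p = 0.625). Gadd45g differed by -0.60 ± 0.36 (-1.31 to 0.11; adjusted p = 0.585). The compounds differ by a nitro against a methylsulfinyl group, and for no member was a difference in response called.

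In D4 the comparison of PD169316 with control asked whether a second ES line responds alike. With 1 array in each group there is no replicate check, and the limma p below assumes that D4 arrays vary like S1 arrays. Gadd45a read 261 in control and 918 with PD169316, Gadd45b (102779_at) 93.1 and 399, and Gadd45g 60.9 and 228. The Gadd45 genes were thus 3.52-fold, 4.29-fold and 3.75-fold higher with the compound, with log2 ratios of 1.82, 2.10 and 1.91. Perp read 120 and 306 (1.36) and Sfn 490 and 1208 (1.30). In all, 5 of the 7 genes were at least 2-fold higher, as were 10.9% of 6282 probe sets. Of these genes, Gadd45b met the signal filter only with treated arrays counted. Over all probe sets limma called 0 of them (0%), with 3.84% at an unadjusted p under 0.05.

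The probe sets of Cdkn1a disagreed in D4. The gene by 98067_at read 1226 in control and 476 with PD169316 (log2 -1.36), one of the 11.4% of probe sets that were at least 2-fold lower. By 94881_at it read 481 and 537 (0.16), so no direction can be given for this gene in D4. Mdm2 read 317 and 370 (0.23), and the Fas probe set 102921_s_at 17.1 and 7.8, both under the floor. The manufacturer's control probe set with the symbol Fas, outside the test, read 13.7 in control, under the floor, and 69.1 with PD169316, at least 2.16-fold higher.

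The PD169316 differences of D4 and S1 were tested against each other, which called 0 of 6282 probe sets (0%; 2.48% at an unadjusted p under 0.05). The largest differences among the members were those of Cdkn1a by 98067_at (-1.75 ± 0.69, unadjusted p = 0.0333, adjusted p = 0.9997) and Gadd45g (1.37 ± 0.96, unadjusted p = 0.190, adjusted p = 0.9997). Perp and Sfn differed between the lines by -0.29 ± 0.86 (95% confidence interval -2.25 to 1.68) and -0.27 ± 0.73 (-1.92 to 1.39). A difference of either sign within these bounds remains possible. The untreated lines also read differently by value, with 0 of 6282 probe sets called (0%; 3.88% at an unadjusted p under 0.05). Relative to the S1 controls, the D4 control was higher in Sfn (1.49 ± 0.51) and Cdkn1a 98067_at (1.30 ± 0.49) and lower in Gadd45a (-1.40 ± 0.56) and Gadd45g (-1.35 ± 0.68; adjusted p = 0.985 for each of these 4). The D4 arrays were hybridized on a day of their own, so line and day cannot be told apart.

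Other genes of these pathways were taken from lists that, like the members, were written with earlier results of these data known. Of 52 other p53 targets 25 could be tested on both versions, and with PD169316 in S1 0 rose and 0 fell. Their median log2 fold change was -0.01 (10 above and 15 below 0), beside 0.03 over all probe sets tested. The largest value was that of Sesn1, a stress-induced inhibitor of growth signalling (0.94 ± 0.31, adjusted p = 0.178), followed by the phosphatase gene Dusp1 (0.58, adjusted p = 0.483). Others lay close to 0, such as the antiproliferative gene Btg2 (0.22), the caspase activator Apaf1 (0.20), the p53 target Zmat3 (0.30) and the Akt inhibitor Phlda3 (-0.07). Ccng2, the relative of Ccng1, stood at -0.60 ± 0.51 (adjusted p = 0.839).

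**Figure D4:**
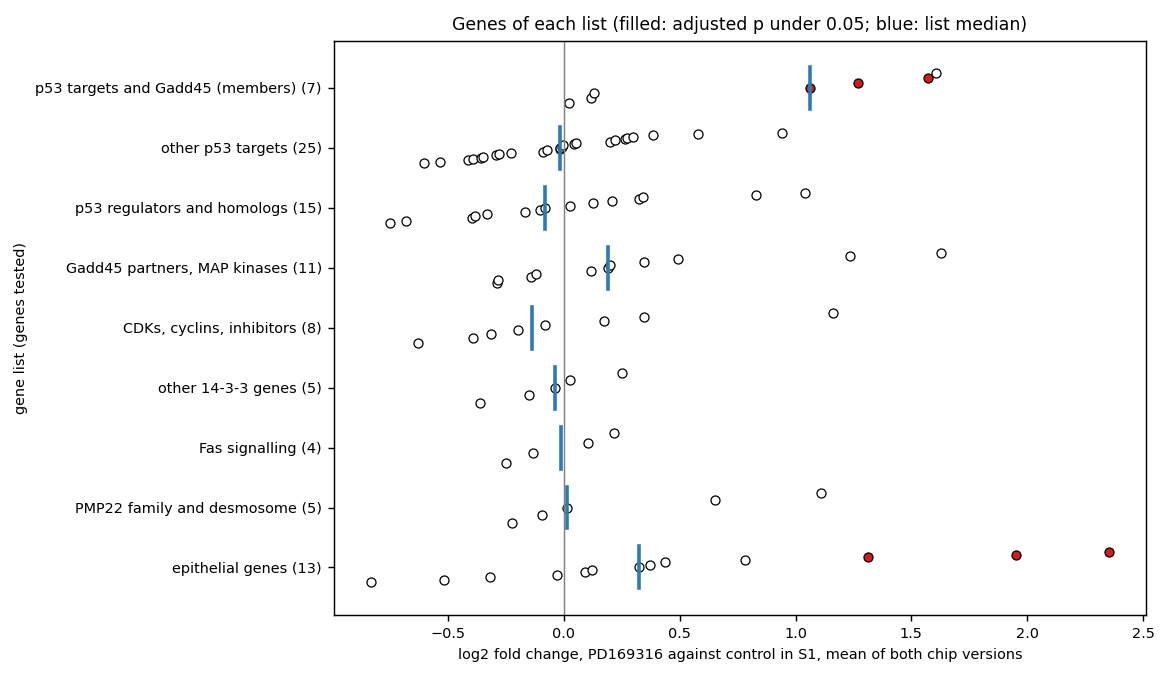
Combined log2 fold change of PD169316 against control in S1 for each tested gene of the members and of the related lists, with list medians in blue and called genes filled. Called genes are found in the members (Perp, Sfn and Gadd45a) and among the epithelial genes (Krt8, Krt18 and Krt19), and the 25 other p53 targets spread around 0 (median -0.01).

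Regulators and relatives of p53 gave 0 calls among 15 tested genes (median -0.08), with Cdkn2a, which encodes the Mdm2 inhibitor ARF, at 1.04 ± 0.55 (adjusted p = 0.504) and the damage kinase gene Chek2 at -0.68 ± 0.23 (adjusted p = 0.210). Among 11 Gadd45 partners and kinases of the p38 and JNK cascades 0 were called (median 0.19). The highest were the p38 activator Map2k6 (1.63 ± 0.58, adjusted p = 0.260) and the stress transcription factor Ddit3 (1.24 ± 0.45, adjusted p = 0.258), while Map3k4, the kinase that Gadd45 proteins bind, stood at 0.49 and Mapk14, which encodes p38 alpha, at 0.19. Ddit3 was higher with PD169316 than with SB203580 (2.35 ± 0.50, adjusted p = 0.0304, and adjusted p = 0.328 with the correlation of z scores allowed for).

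With PD169316 none was called among 8 cyclins, cyclin-dependent kinases and their inhibitors (median -0.14), 5 other 14-3-3 genes, the family of Sfn (-0.04), 4 genes of Fas signalling (-0.01) and 5 genes of the desmosome and of the PMP22 family to which Perp is related (0.01). In the last list the desmosomal linker gene Dsp stood highest (1.11 ± 0.38, adjusted p = 0.103) and Dsg2 next (0.65). With SB203580 0 genes were called in any list, with 5 of the 25 other p53 targets above 0 and 20 below (median -0.30, beside -0.00 over all probe sets). That median was -0.38 on U74A, which holds 1 SB203580 array (5 of 26 above 0), and -0.12 on U74Av2 (11 of 28 above 0). In D4 0 were called in any list, and the 28 other p53 targets tested there had a median of -0.22.

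Perp and Sfn are also known as epithelial genes, and 3 of 13 tested epithelial genes rose with PD169316 in S1, all of them keratins of simple epithelia (median of the list 0.33). Over all probe sets 1.38% were called higher. Krt8 rose by 1.95 ± 0.34 (adjusted p = 0.00232, and 0.0524 with the correlation of z scores allowed for), Krt18 by 1.31 ± 0.30 (adjusted p = 0.0160, then 0.154) and Krt19 by 2.35 ± 0.57 (adjusted p = 0.0345, then 0.237). Junction genes of the same list were not called, as with Cdh1 (0.44), Epcam (-0.32), Cldn4 (0.78) and Tjp1 (0.33). Cldn4, a tight junction gene, was higher with PD169316 than with SB203580 (1.63 ± 0.38, adjusted p = 0.0257, and 0.307 with the correlation of z scores allowed for). The summed signal of the 15 epithelial genes on U74Av2 was 3644 and 4114 in control, 5513 and 6667 with PD169316 and 4651 and 4887 with SB203580. On U74A it was 3115 and 6319 in S1 control and 5446 and 6891 with PD169316, where the groups overlapped, 3738 with SB203580, and 6493 and 9495 in D4 control and D4 with PD169316.

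Markers of other cell types were read in the same test. Of 7 tested ES and epiblast genes, Utf1 (-0.90), Tdgf1 (-1.91) and Fgf4 (-1.08) fell with PD169316 (adjusted p = 0.0302, 0.0123 and 0.0148, and 0.221, 0.139 and 0.152 with the correlation of z scores allowed for). The others, Pou5f1 (-0.57), Sox2 (-0.09), Dppa4 (-0.02) and Zfp42 (0.14), were not called. Over all 5369 probe sets 0.503% were called lower and 1.38% higher. The summed signal of the list on U74Av2 was 40519 and 41293 in control, 27863 and 30273 with PD169316 and 32380 and 27910 with SB203580. On U74A it was 22822 and 17023 in S1 control, 14651 and 12018 with PD169316 and 20647 with SB203580. Of 3 trophoblast genes Tfap2c rose (1.42 ± 0.31, adjusted p = 0.0158, and 0.154 with the correlation of z scores allowed for). Hand1 (-0.41) and Plac1 (0.08) were not called. The summed signal of the trophoblast list on U74Av2 was 1071 and 1257 in control and 1729 and 1015 with PD169316, where the groups overlapped. On U74A it was 534 and 767 in S1 control and 1170 and 1251 with PD169316. Between the compounds, Tfap2c was higher with PD169316 (1.93 ± 0.35, adjusted p = 0.00472, then 0.115) and Utf1 lower (-1.03 ± 0.26, adjusted p = 0.0482, then 0.406). Of 2 tested endoderm and 2 tested fibroblast genes 0 were called. The part of a change in cell type in the rises of Perp, Sfn and Gadd45a was not tested.

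The genes most like each of 4 members were those with the highest lower of 2 Pearson correlations of log2 signal, over the 7 arrays of U74A and the 6 of U74Av2. They were taken among 4860 probe sets of other named genes tested on both. These are descriptions over few arrays that share treatment, line and day. Perp went most closely with Tln1 (r = 0.98 and 0.97), Cd151 (0.98 and 0.93), Sparc (0.94 and 0.93), Lgals1 (0.93 and 0.92) and S100a6 (0.92 and 0.95). Gadd45b by 102779_at went with Wfdc2 (0.91 and 0.92), Plscr1, Rell1, Krt18 (0.89 and 0.84) and S100a13. For Sfn the genes were Bnip1 (0.89 and 0.93), Trappc2l, Bloc1s1, S100a10 and Nsmce1, and for Gadd45a they were G0s2 (0.89 and 0.93), Inpp5a, Tuba1a, Thap7 and Anln. No other member appeared among the 5 nearest genes of any of the 4.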

How the data were processed

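RNA of 13 samples was measured on Affymetrix U74A (7) and U74Av2 (6) arrays. Per the labels' protocols, each array received 10 µg of cRNA from 5 µg of total RNA, and the authors computed the deposited intensities with MAS 5.0 and scaled them to a trimmed mean of 300. The tables were scaled separately and tested separately. Groups came from the sample titles and hybridization days from the deposited array files.

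The 66 control probe sets of each version were left out, as were 2611 of U74A at 0 on all arrays. Of 12588 U74A probe sets 10276 carried 1 gene symbol, 363 several and 1949 none, and of 12422 on U74Av2 the numbers were 10833, 396 and 1193. Genes were named from 1 symbol only, which can be old. Of several probe sets of a gene, that of highest mean signal was counted, and the others are given beside it.

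Signals were floored at 32, converted to log2 and tested with limma 3.58.1 in R 4.3.3 (intensity trend, two-sided, Benjamini-Hochberg). Within a table, spread was estimated over all S1 groups together. The combined test summed the z scores of both tables over the square root of their number. The D4 tests used all U74A arrays with a mean for each group. The code was checked on simulated data. Every member was named. The members, lists and named genes were chosen with earlier results of these data known.

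Same-numbered control and PD169316 arrays of a table shared a hybridization day, so the replicate number was also fitted as a block. Their deviations from the group means correlated at r = 0.21 on U74A and 0.17 on U74Av2. Alternatives were quantile normalization, floors of 16 and 64, no filter or a minimum of 200, no trend, the dimmer probe set, each array left out, the day 3 controls left out, a day block, 1 ratio per day, and, chosen after seeing the data, the control probe sets kept in. The number of arrays limits the precision. Promoter windows are from RefSeq.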

Additional observations from a re-analysis of the deposited data

How the results depend on the processing

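With 1 or 2 arrays in a group, the precision is limited by their number, and probe sets near the floor of 32 give only bounds. With PD169316 in S1, the combined count of 3 member genes became 0 with no signal filter, without the intensity trend, without the S1 control replicate 1 arrays of both tables, with the correlation of z scores allowed for and with 1 ratio for each hybridization day. Leaving out single arrays gave 0 to 4, and 0 without U74A PD169316 replicate 1, U74Av2 control replicate 1 or U74Av2 PD169316 replicate 1. The replicate block gave 4, with Gadd45b added, while the calls over all probe sets went from 101 to 199. Over all probe sets 1 was called with no signal filter and 31 without the trend. With the correlation of z scores allowed for 12 were called, and 0 with 1 ratio for each day. On U74Av2 the count of 1 became 0 with no filter, a minimum signal of 200, a floor of 64, no trend, the lowest-signal probe set and the control probe sets kept in (chosen after seeing the data), and 0 to 0 over the arrays left out, and stayed at 1 with the replicate block. For PD169316 against SB203580 the combined count of 0 became 1 (Perp) without the S1 control replicate 1 arrays and with the day 3 block, and 0 to 1 over single arrays. The replicate block changed no other count of member genes. Over all U74Av2 probe sets 9 were called, or 3 with no filter, 6 at a minimum signal of 200 and 4 with a floor of 64. The number was 0 without the trend, 1 with the control probe sets kept in and 53 with the replicate block. Between the compounds 37 of all probe sets were called in the combined test, and 88 with the day 3 block. The causes were not tested.

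Signs turned only for values that were not called. Under quantile normalization these were Gadd45g with PD169316 (-0.078 from 0.02), Perp with SB203580 (0.10 from -0.01), Ccng1 with SB203580 on U74Av2 (0.012 from -0.02), Perp in the difference between lines (0.032 from -0.29) and Gadd45b between untreated lines (-0.40 from 0.03). Gadd45g turned to -0.037 with 1 ratio per day, and Cdkn1a in D4 to 0.16 with its lowest-signal probe set. Over arrays left out, ranges that crossed 0 were, with PD169316, Mdm2 (-0.12 to 0.38), Cdkn1a (-0.37 to 0.60), Gadd45g (-0.22 to 0.27) and Ccng1 (-0.22 to 0.67). With SB203580 they were Perp (-0.17 to 0.15), Gadd45b (-0.74 to 0.0059) and Ccng1 (-0.46 to 0.41), between the compounds Ccng1 (-0.20 to 0.69), in the difference between lines Perp (-0.72 to 0.14) and Sfn (-0.58 to 0.044), and between untreated lines Gadd45b (-0.25 to 0.31).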
